A study of Mus musculus with 5 samples.

Results

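The Hox genes of the fetal mouse colon were followed across 5 arrays, 1 for each embryo at stage E18.5. Members were the probe sets annotated to a single symbol made of Hox, a cluster letter from a to d and a paralog number. This took in 37 of 22626 probe sets and 31 of the 39 mouse Hox genes in the RefSeq gene table. The others were not analysed here. In 3 embryos, the HNF4 nulls null_59, null_60 and null_426, both HNF4 alleles were floxed (LoxP/LoxP), and in 2 control embryos, CONTROL_406 and CONTROL_421, 1 allele was (LoxP/+). Values array by array are deposited intensities, given in that order. All 5 embryos carried the FoxA3Cre transgene, so the controls were heterozygous and there was no group without Cre. The transgene is named for Foxa3, a gene of the gut endoderm, while the arrays read total RNA of the colon as a whole. The labels do not say whether the embryos came from separate litters, so the p-values measure only the spread between these 5 samples.

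Hox genes encode homeodomain transcription factors that give cells their position along the head-to-tail axis. They lie in 4 clusters, and their order in a cluster follows the order in which they are used along the body, with low paralog numbers towards the head and high ones towards the tail. Genes of the same number in different clusters are paralogs. In the gut they are used by the mesenchyme and the epithelium, and those of paralog group 13 mark the most caudal hindgut, next to the developing urinary and genital tract. The comparison asks whether levels along this code differ when both HNF4 alleles rather than 1 are floxed.

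The difference between HNF4 null and control colons passed the threshold of an adjusted p under 0.05 in no Hox gene. With limma, 0 of the 37 Hox probe sets passed, against 0.124% of all 22626, and the smallest adjusted p among them was 0.493. At an unadjusted p under 0.05, 3 of the 31 genes were lower in null colons (Hoxc9, Hoxa13 and Hoxb13) and 0 were higher, while 4.28% of all 12393 genes were lower and 2.63% higher at that level. Counted by probe set, the Hox total was likewise 3, beside 7.15% of all probe sets, and it was 0 lower and 2 higher without CONTROL_421 and 5 lower and 1 higher without null_59. The share over all probe sets was not counted for these 2 fits, and the fit without CONTROL_421 rests on 1 control array. The 4 measured genes of paralog group 13 all had a log2 difference below 0, and 19 of the 31 Hox genes did, beside 46.4% of all genes. For Hoxc13, of group 13, it turned to 0.16 without null_60. A log2 difference is null minus control on the log2(intensity + 16) scale after quantile normalisation, and a gene stands by its brightest probe set. Since a bulk sample was measured, fewer cells of a type and less RNA per cell cannot be told apart.

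**Figure D1:**
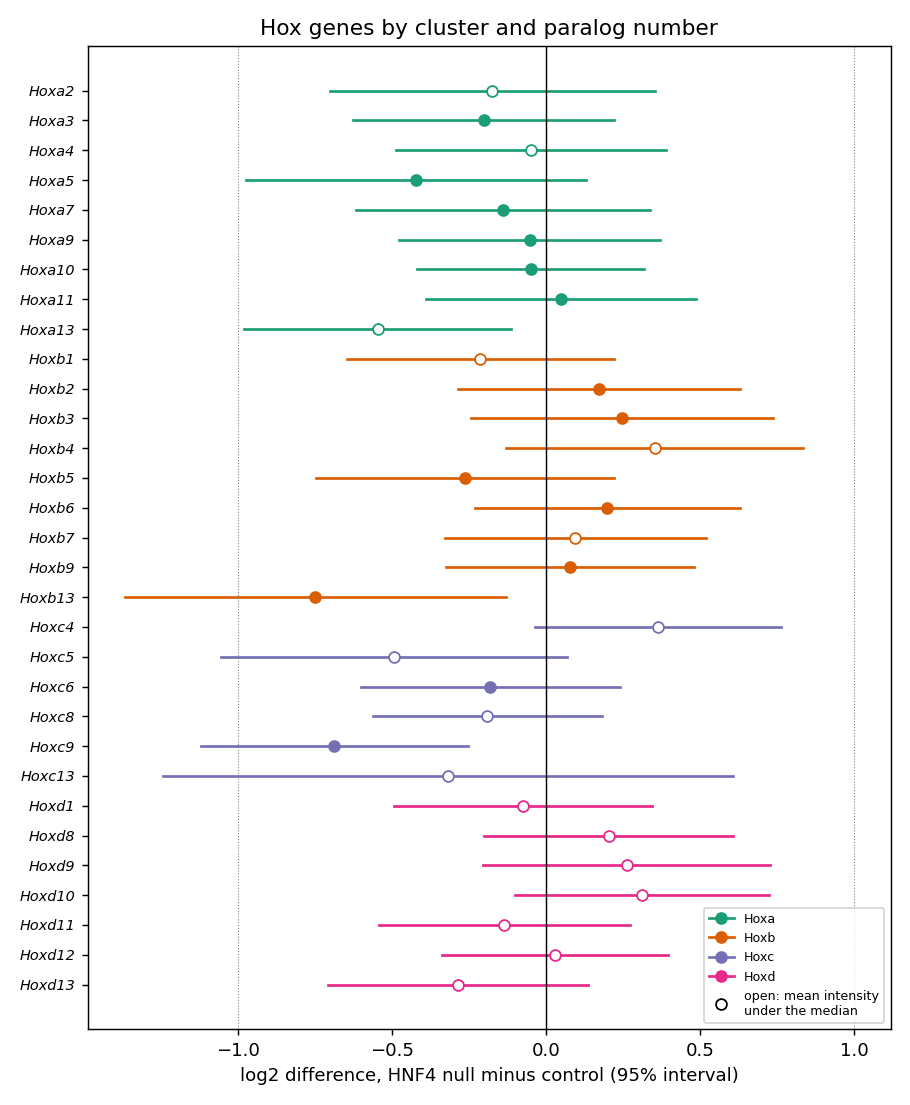
Log2 difference (x axis, HNF4 null minus control, 3 against 2 arrays) of each of the 31 Hox genes (y axis), by cluster and paralog number, with 95% intervals as bars, open points for genes of a mean intensity under the median and dotted lines at 2-fold either way. Of the 31 intervals, 3 lie wholly below 0 (Hoxa13, Hoxb13 and Hoxc9), beside 4.28% of all genes, and none lies wholly above it, beside 2.63%. Within 2-fold lie 27, beside 94.2% of all genes. An interval clear of 0 is the same as an unadjusted p under 0.05, and no Hox gene passed the adjusted threshold. The scale understates the change of dim genes.

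Array median intensities lay between 123.7 and 135.2, and log2 values of array pairs had Pearson correlations across probe sets from 0.946 to 0.974. CONTROL_421 had a 3' to 5' ratio of the Gapdh control probe sets of 1.47, against 0.767 to 0.895 in the other arrays, and its part in the Hox values was not tested. Hnf4a, the gene of HNF4 alpha, read 650, 746 and 723 in the null arrays and 945 and 991 in the controls by the brightest of its 4 probe sets (log2 difference -0.35 ± 0.17, SE, adjusted p = 0.719). The other 3 had -0.55, 0.14 and 0.19, so the direction for Hnf4a depended on the probe set, and none passed the threshold. Since the floxed stretch is not named in the labels, these values do not check the deletion. Markers of the labelled tissue were present, with the epithelial keratin gene Krt8 at 3800 to 4899 and the smooth muscle actin gene Acta2 at 5074 to 5235. Relative to the control mean, the array median over the 31 Hox genes was -0.04, -0.05 and -0.04 in the null arrays, -0.10 in CONTROL_406 and 0.10 in CONTROL_421. The null values lay between the control values. Since the control values are equal and opposite by construction, this does not show that Hox levels were unchanged. The median log2 difference was -0.08 for Hox genes and 0.02 for all genes.

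Paralog group 13 was the most caudal group measured. Hoxb13, which acts in tail, prostate and distal hindgut, read 361, 341 and 179 in the null arrays and 516 and 465 in the controls (probe set 1419576_at). Every null array was below both controls, and null_426 was the lowest by a wide margin. The means were 294 ± 99.5 (SD, n = 3) and 491 ± 36.3 (SD, n = 2), and the log2 difference was -0.75 ± 0.28 (SE, 95% interval -1.37 to -0.13, limma adjusted p = 0.642), or 1.68-fold lower with an interval from 1.10 to 2.58. Without null_426 it was -0.45 (adjusted p = 0.922), and with any other array left out it lay between -0.95 and -0.70.

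Hoxa13, which patterns the hindgut, the digits and the genital tubercle, read 61.6, 39.9 and 49.6 in the null arrays and 71.5 and 78.5 in the controls (probe set 1422336_at). The groups did not overlap, but the probe set was dim, which here means a mean intensity under 131.9, the median over all probe sets, as in 17 of the 31 Hox genes and all 7 of the Hoxd cluster. The means were 50.4 ± 10.9 (SD, n = 3) and 75.0 ± 4.89 (SD, n = 2), and the log2 difference was -0.55 ± 0.19 (SE, 95% interval -0.98 to -0.11, adjusted p = 0.617). With each array left out in turn it lay between -0.69 and -0.44.

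Hoxd13, which acts with Hoxa13 in hindgut and limb, read 87.5, 87.8 and 80.1 in the null arrays and 88.1 and 118 in the controls (probe set 1422239_at). CONTROL_406 lay beside the null arrays and only CONTROL_421 stood clearly above them, so that the groups did not overlap as deposited and overlapped after normalisation. The log2 difference was -0.29 ± 0.19 (SE; adjusted p = 0.780), and it was -0.07 without CONTROL_421 and -0.51 without CONTROL_406.

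Hoxc13, best known from hair and nail, read 56.2, 5.34 and 30.1 in the null arrays and 33.8 and 30.9 in the controls (probe set 1425874_at). The probe set was dim, and the null arrays spread to both sides of the controls. The log2 difference of -0.32 ± 0.41 (SE; adjusted p = 0.880) turned to 0.16 without null_60, so the sign shared by all 4 genes rested on that array for Hoxc13. The other 3 genes kept a difference below 0 with any array left out. Over the 4 genes the array median relative to the control mean was -0.24, -0.64 and -0.52 in the null arrays and -0.06 and 0.06 in the controls. The control values are equal and opposite by construction, and the 4 genes share the same arrays, so these medians are a description only.

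Promoters of Hoxa13 and Hoxd13 are shown because they are the genes of paralog group 13 with an entry in the RefSeq promoter table (build GRCm38.p6), which held 18 of the 31 measured Hox genes. Each runs 5′ to 3′ on the gene's strand over the 250 bases before the start of transcription, at chr6:52260881-52261130 on the minus strand for Hoxa13 and chr2:74667975-74668224 on the plus strand for Hoxd13. Capitals mark the TATA motif TATAAA on either strand, whose copies overlap in Hoxd13.
Hoxa13: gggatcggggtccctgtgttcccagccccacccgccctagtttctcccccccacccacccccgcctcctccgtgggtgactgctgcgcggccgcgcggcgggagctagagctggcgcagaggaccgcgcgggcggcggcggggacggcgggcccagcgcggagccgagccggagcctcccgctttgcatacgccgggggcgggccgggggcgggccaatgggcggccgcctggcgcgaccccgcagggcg
Hoxd13: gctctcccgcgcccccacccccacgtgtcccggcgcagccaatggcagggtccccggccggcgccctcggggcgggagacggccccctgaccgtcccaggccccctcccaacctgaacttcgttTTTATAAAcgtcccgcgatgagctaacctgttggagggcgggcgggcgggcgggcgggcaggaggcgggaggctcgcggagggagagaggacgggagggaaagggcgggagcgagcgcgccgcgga
G and C made up 80.0% of the Hoxa13 stretch and 74.4% of the Hoxd13 stretch, with 35 and 31 CG pairs. Over windows of 300 bases, which add the 50 bases after the start, the median was 58.7% G and C in 20 Hox windows and 52.7% in all 32851 windows. The motifs searched on both strands were CAAAGTCCA, a core letter string of HNF4 sites, TTTATG, one of CDX sites, and TATAAA. CAAAGTCCA was found in 0 of the 20 Hox windows and 0.475% of all windows. TTTATG was found in 2 Hox windows, that of Hoxa7 and 1 of Hoxd11, and in 11.9% of all. TATAAA was found in 2 Hox windows, that of Hoxd13 and 1 of Hoxa10, and in 13.6% of all. A missing match says only that these letters are not in these windows.

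Below paralog group 13 the differences had no common direction. Of 27 genes, 15 were lower and 12 higher, with a median of -0.05. The medians were -0.05 over 9 genes of groups 1 to 4, -0.18 over 9 of groups 5 to 8 and 0.03 over 9 of groups 9 to 12. As a description across genes, which share the same 5 arrays, Spearman's rho between paralog number and log2 difference was -0.21 over 31 genes and 0.13 over the 27 without group 13.

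**Figure D2:**
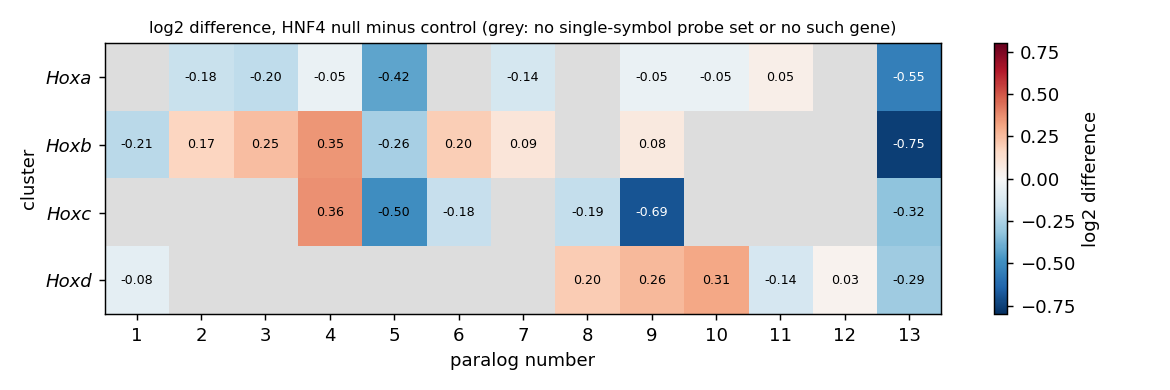
Log2 difference (colour and printed value, HNF4 null minus control) by cluster (rows) and paralog number (columns), with grey where no single-symbol probe set or no such gene exists. The column of paralog 13 holds 4 values below 0, from -0.75 to -0.29, and the column of paralog 5 holds 3, while most other columns hold both signs.

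Hoxc9, a trunk-level gene of the c cluster, had the smallest p of all Hox genes. Taking the gene of smallest p favours a large difference, and the interval below is not adjusted for that choice. It read 166, 121 and 155 in the null arrays and 221 and 268 in the controls (probe set 1449867_at), so every null array was below both controls. The means were 148 ± 23.4 (SD, n = 3) and 244 ± 33.5 (SD, n = 2), and the log2 difference was -0.69 ± 0.19 (SE, 95% interval -1.12 to -0.26, limma adjusted p = 0.493), or 1.61-fold lower with an interval from 1.19 to 2.17. With each array left out in turn the difference lay between -0.84 and -0.53, and the smallest adjusted p was 0.237, without CONTROL_406. Of its paralogs, Hoxa9 had -0.05 ± 0.19 (SE) by its brighter probe set and -0.36 ± 0.22 by the other. Hoxb9 had 0.08 ± 0.18 and Hoxd9 0.26 ± 0.21, and these differences between paralogs were not tested.

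Paralog group 5, at the level of the foregut and lung, had 3 of 3 measured genes below 0. Hoxa5, needed in the mesenchyme of lung and gut, read 152, 271 and 260 in the null arrays and 277 and 330 in the controls. Only null_59 stood clearly apart, and the log2 difference of -0.42 ± 0.25 (SE; adjusted p = 0.765) was -0.18 without it. Hoxb5, a gene of the enteric nervous system and gut mesenchyme, read 149, 245 and 227 in the null arrays and 265 and 228 in the controls. Again null_59 was the low array, and the difference of -0.26 ± 0.22 (SE; adjusted p = 0.812) was -0.07 without it. Hoxc5 was among the dimmest, at 23.9, 6.39 and 19.0 in the null arrays and 26.5 and 25.3 in the controls, with a difference of -0.50 ± 0.25 (SE; adjusted p = 0.731) that was -0.24 without null_60.

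Above 0 were 12 of the 31 Hox genes. Hoxc4, an anterior gene of the c cluster, read 81.5, 94.6 and 91.0 in the null arrays and 54.7 and 69.5 in the controls. The groups did not overlap, and the log2 difference was 0.36 ± 0.18 (SE; adjusted p = 0.728), or 0.18 without CONTROL_406 and 0.54 without CONTROL_421. Hoxd10, a gene of the lumbar level and the limb, read 92.7, 98.9 and 135 in the null arrays and 79.2 and 80.8 in the controls, a difference of 0.31 ± 0.18 (SE; adjusted p = 0.767) that was 0.19 without null_426. Its null arrays were all above the controls, by little except in null_426. On the normalised scale, Hoxc4 and Hoxd10 were the 2 of 31 Hox genes with all null arrays above both controls, beside 12.6% of all genes, and 6 had all null arrays below both (Hoxa5, Hoxa13, Hoxb13, Hoxc5, Hoxc8 and Hoxc9), beside 11.8%. As deposited, the null arrays of Hoxd8 were also all above both controls. Hoxd9 read 66.5, 51.3 and 88.1 in the null arrays and 44.8 and 55.7 in the controls, with overlapping groups and a difference of 0.26 ± 0.21 (SE; adjusted p = 0.804) that was 0.09 without CONTROL_406. Hoxc8 read 69.8, 66.3 and 64 in the null arrays and 82.5 and 65.6 in the controls, which overlapped as deposited, and its difference was -0.19 ± 0.17 (SE; adjusted p = 0.819), or -0.11 without CONTROL_406.

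**Figure D3:**
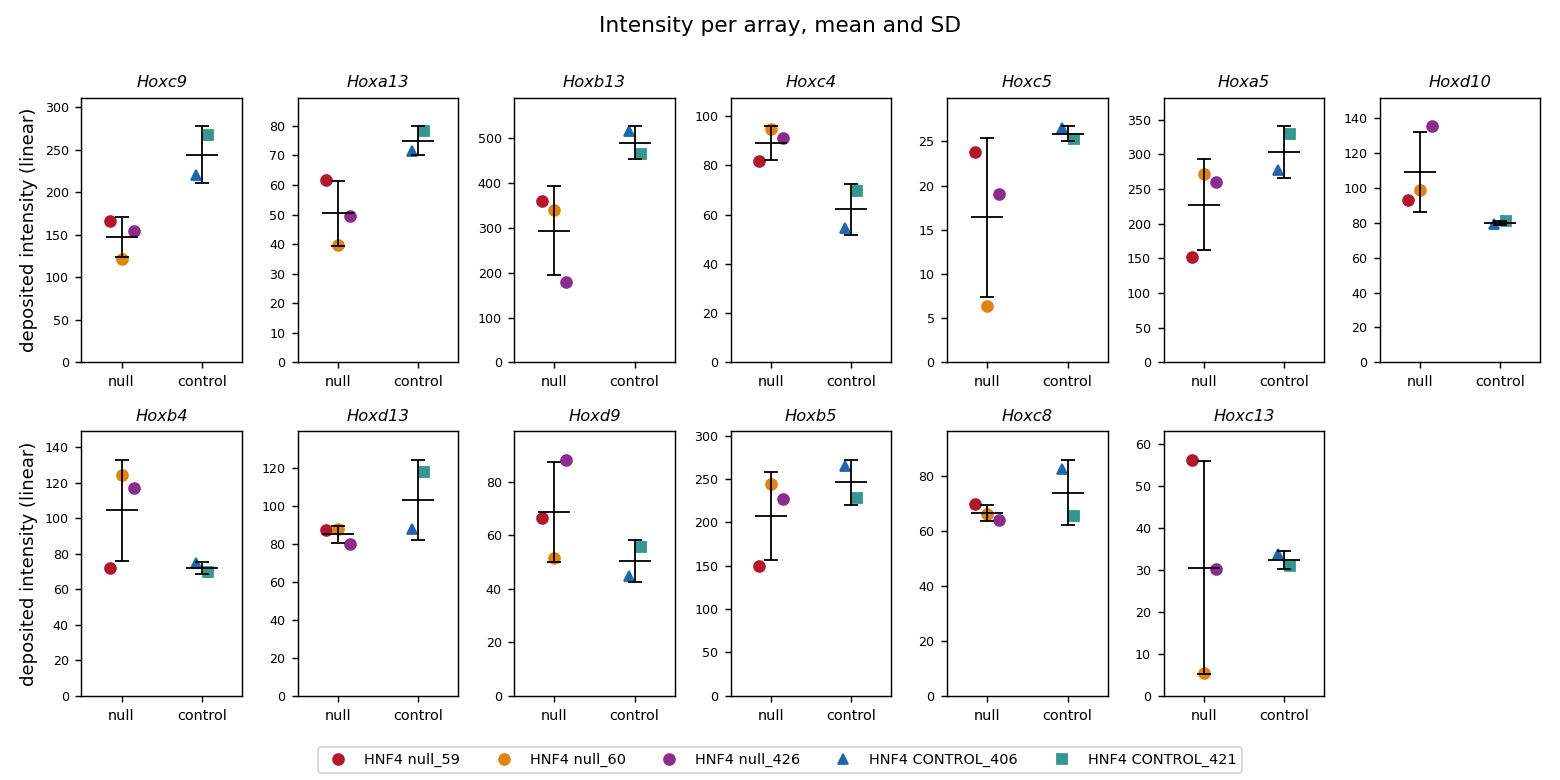
Deposited intensity (y axis, linear, from 0) per array of the 13 Hox genes described array by array, with the mean and SD of the 3 HNF4 null and 2 control arrays as bars. In Hoxc9, Hoxa13, Hoxb13, Hoxa5, Hoxc5 and Hoxd13 the null arrays lie below both controls, and in Hoxc4 and Hoxd10 above them. In Hoxa5, Hoxc5 and Hoxd13 the highest null array is close to the lower control. In Hoxc5 and Hoxc13 null_60 is far below the rest.

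By cluster, 8 of 9 Hoxa genes were below 0 with a median of -0.14, the exception being Hoxa11 at 0.05, though Hoxa4 was above 0 without scaling. The Hoxb cluster had 6 of 9 genes above 0 and a median of 0.09, from -0.75 for Hoxb13 to 0.35 for Hoxb4. The Hoxc cluster had 5 of 6 genes below 0 and a median of -0.26, and the Hoxd cluster had 3 of 7 below 0 and a median of 0.03, with Hoxd1 above 0 without scaling. Among the 18 genes not described array by array, adjusted p lay between 0.823 and 0.975. All 18 had 95% intervals within 2-fold either way on the scale used. They were left after the genes of smallest p were taken, which favours large adjusted p. For dim genes the constant added before the logarithm also narrows the interval, so a 2-fold change in intensity is not excluded. Hoxa2, the dimmest of the 18, had -0.18 ± 0.24 (SE), and -0.33 ± 0.38 with a pseudocount of 1. Over all 31 Hox genes, 27 had an interval within 2-fold on the scale used, beside 94.2% of all genes. The other 4 were Hoxb13, Hoxc9, Hoxc5 and Hoxc13. The group difference exceeded the gap between the control arrays in 15 of 31 Hox genes and in 5086 of all 12393. In Hoxa7 that gap was 0.60, against a group difference of -0.14.

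Several probe sets of 1 gene could be compared for 5 genes. Those of Hoxa3 (-0.20 and -0.18), Hoxa9 (-0.05 and -0.36) and Hoxc6 (3 probe sets, -0.26 to -0.06) had the same sign. Those of Hoxa4 (-0.05 and 0.20) and Hoxb4 did not. For Hoxb4 the brighter probe set read 71.8, 125 and 117 in the null arrays and 74.6 and 69.8 in the controls, and the log2 difference was 0.35 ± 0.21 (SE; adjusted p = 0.771), or 0.22 without null_60 and 0.55 without null_59. The other, read at 65.1, 79.7 and 90.4 in the null arrays and 86.5 and 93.2 in the controls, had a log2 difference of -0.24 ± 0.17 (SE; adjusted p = 0.797). The direction for Hoxb4 therefore depended on the probe set.

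Genes that act with or upstream of Hox genes are given by lists. Of 8 measured TALE homeodomain cofactors, the PBX, MEIS and PKNOX partners of HOX proteins on DNA, 0 passed limma's threshold (0.137% of all genes did) and 0 had an unadjusted p under 0.05. Their median was -0.01, with Pbx4 at -0.33 ± 0.17 (SE), Pknox2 at -0.16 and Pknox1 at 0.12. Of 8 ParaHox and neighbouring homeobox genes, 0 passed. At an unadjusted p under 0.05, 1 was lower (4.28% of all genes were). This was Cdx1, a caudal factor of the intestinal epithelium that activates Hox genes. Cdx1 read 367, 370 and 201 in the null arrays and 452 and 635 in the controls, and the log2 difference was -0.78 ± 0.28 (SE; adjusted p = 0.615). As with Hoxb13, null_426 was the lowest array. Its partner Cdx2, named after its values were seen, read 317, 311 and 313 in the null arrays and 344 and 402 in the controls, a difference of -0.21 ± 0.17 (SE; adjusted p = 0.810). Cdx4 and Gsx2 had 0.33 and 0.28.

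**Figure D4:**
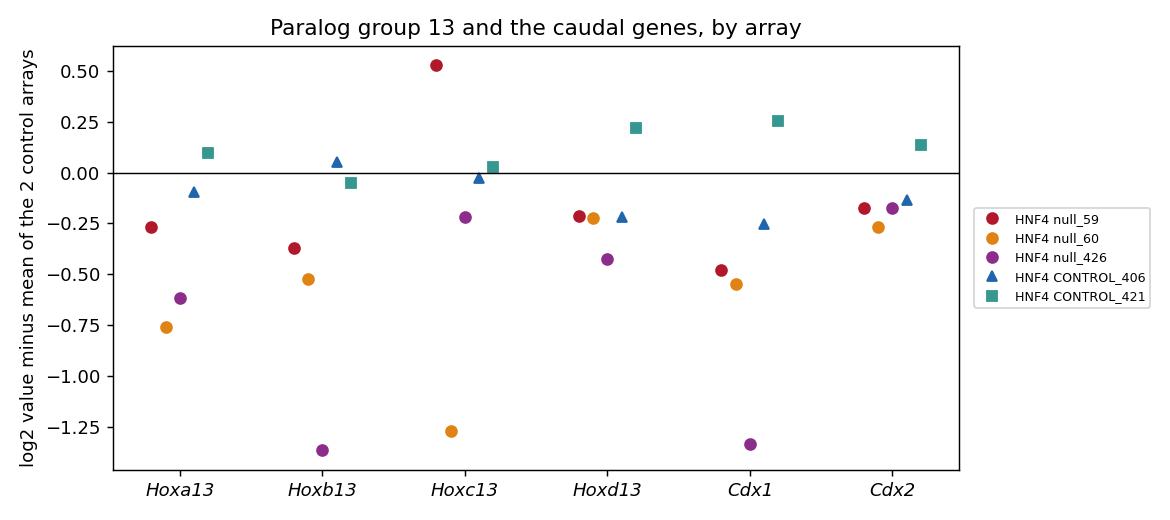
Log2 value of each array minus the mean of the 2 control arrays (y axis) for the 4 genes of paralog group 13 and for Cdx1 and Cdx2 (x axis), with 1 point for each of the 5 arrays. In Hoxb13 and Cdx1 the lowest point is null_426, in Hoxa13 and Hoxc13 it is null_60, and in Hoxd13 CONTROL_406 lies level with null_59 and null_60.

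Of 15 genes of retinoic acid and other upstream signals, 0 passed. At an unadjusted p under 0.05, 1 was lower (4.28% of all genes were), the receptor gene Rara (-0.45 ± 0.19, SE). Rarb had 0.38 and Aldh1a2, which encodes the retinoic acid synthesising enzyme of mesenchyme, 0.37, and the median was 0.01. Of 18 Polycomb and Trithorax regulators, which keep Hox genes silent or active, 0 passed. At an unadjusted p under 0.05, 1 was higher (2.63% of all genes were). This was Jarid2, an accessory subunit of the Polycomb complex that methylates histones, at 211, 215 and 192 in the null arrays and 149 and 138 in the controls (0.45 ± 0.16, SE, adjusted p = 0.615). Cbx2 and Cbx7 had 0.40 and 0.32, and the median of the list was 0.13. The null arrays were above both controls in 7 of these 18 genes and below both in 0, beside 12.6% and 11.8% of all genes.

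Markers of cell types and neighbouring tissues were read beside these values. A summed intensity is weighted towards the brightest genes of its list. Among the epithelial genes these are Krt8, Car2 and Krt19, and among the mesenchymal ones the collagen genes. The 12 measured colonic epithelial genes had summed intensities of 14389 to 17793 in null and 19195 to 19653 in control arrays, with null_426 lowest. Of these, 9 were below 0 (46.4% of all genes) and 4 lower at an unadjusted p under 0.05 (4.28% of all genes), with Krt20 at -0.87, Epcam at -0.66 and Vil1 at -0.74, and 0 passed. The 3 above 0 were Krt18 at 0.29, Car4 at 0.19 and Krt19 at 0.14. The part of these 12 epithelial genes in the lower values of Hoxb13 and Hoxa13 was not tested. The 10 genes of gut mesenchyme and fibroblasts summed to 8517 to 11359 in null and 10610 to 11873 in control arrays, again with null_426 lowest. Of these, 7 were below 0 (46.4% of all genes) and 0 passed. At an unadjusted p under 0.05, 2 were lower (4.28% of all genes were), Postn at -0.71 and Foxf2 at -0.45. Lum had 0.23, and the median of the list was -0.04. The 9 smooth muscle genes summed to 15256 to 16919 in null arrays and to 15788 in CONTROL_406 and 12879 in CONTROL_421. Of these, 8 were above 0, beside 6637 of all 12393 genes, and 0 passed. At an unadjusted p under 0.05, 3 were higher (2.63% of all genes were), Tagln at 0.56, Myh11 at 0.57 and Myocd at 0.39. The median of the list was 0.19.

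Lists of other tissues were compared between arrays, not with each other. Urothelial and genital tract genes (6 measured) summed to 1464 to 1637 in null and 1400 to 1550 in control arrays, with Upk3a at -0.43, Upk1a at 0.33 and Pax8 at -0.20. Mesothelial genes (3 measured) summed to 373 to 454 in null and 242 to 368 in control arrays, with Wt1 at 0.44, Msln at 0.38 and Upk3b at 0.20. Genes of spinal cord and axial tissue (8 measured) summed to 1006 to 1147 and 946 to 971, with Pax9 at 0.26, Pax6 at 0.19 and Nkx6-1 at 0.30. Enteric neuron and glia genes (8 measured) summed to 1361 to 1723 and 1158 to 1463, with Ednrb at 0.29, Elavl4 at 0.23 and Gfra1 at 0.17, and endothelial genes (6 measured) to 952 to 1159 and 852 to 903, with Tek at 0.27, Pecam1 at 0.55 and Kdr at 0.26. Of the genes that mark other gut regions, 7 of the stomach summed to 1278 to 1494 in null and 1401 to 1447 in control arrays, with Gkn2 at -0.39, Gkn1 at -0.30 and Sox2 at 0.12. The 7 of the small intestine summed to 830 to 906 and 892 to 930, with Slc10a2 at -0.68, Rbp2 at -0.34 and Gata4 at 0.29. In these lists 0 genes passed the threshold. At an unadjusted p under 0.05, Upk3a and Slc10a2 were lower and Wt1 higher, beside 4.28% and 2.63% of all genes. The part of these tissues in the Hox values was not tested.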

How the data were processed

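The authors deposited linear intensities for each probe set, some below 0. How the authors summarised probes, subtracted background and scaled arrays is not given in the sources used here. Per the labels, biotin-labelled total RNA was processed by the array maker's procedure. Of 22690 probe sets, 64 controls were left out, and a platform annotation of 2016 named 20380 with 1 symbol, 691 with several and 1555 with none. All 37 Hox probe sets matched RefSeq by gene ID with the same symbol.

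Values below 0 were set to 0 and taken as log2(intensity + 16). Array medians spread over 0.11, above a limit of 0.1, so arrays were quantile normalised. Fold changes on this scale understate the change of dim genes. HNF4 null was compared with control by limma 3.58.1 in R 4.3.3 (two-sided, no covariate, 9.33 total degrees of freedom), with Benjamini-Hochberg adjustment over 22626 probe sets. The fit was also run on simulated data with planted changes larger than any Hox difference here. That run does not measure how often changes of the size seen in Hox genes would be found. Intervals are 95%. The number of arrays limits the precision. A gene stood by its brightest probe set. Genes given array by array were the 12 Hox genes of smallest p and paralog group 13, and 3 genes of smallest p from each list were named. Taking genes by smallest p favours large differences, and their intervals are not adjusted for it. Dim means a mean intensity under 131.9, the median over probe sets. Members, lists and rules were chosen with earlier results of these data known. Other fits used no scaling, median centring, pseudocounts of 1 and 64, no dim probe sets, a trended or robust prior, weights per array or gene means over probe sets, or left out each array in turn.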

Additional observations from a re-analysis of the deposited data

How the results depend on the processing

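The Hox count past limma's threshold was 0 in each of the 13 alternative fits over probe sets, which left 37 Hox probe sets (16 after removal of dim ones), with a smallest adjusted p from 0.237 to 0.879. At an unadjusted p under 0.05 the Hox probe sets without CONTROL_421 were 0 lower and 2 higher, against 3 lower and 0 higher with all arrays. Shares over all probe sets at that level were not counted for the alternative fits. The median over Hox genes moved between -0.14 and -0.02. The count over all probe sets, 28, was 14 with a pseudocount of 1 and 45 with array weights, and from 8 to 104 with 1 array left out (8 without null_60, 104 without CONTROL_406, 18 without CONTROL_421). The causes were not tested. No paired analysis was possible because the groups share no replicate numbers.

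Of the 31 Hox genes, 17 kept their sign in every alternative run for them, Hoxb13, Hoxa13, Hoxd13 and Hoxc9 among them, and 14 turned it in 23 of 417 values in all. With array weights Hoxc13 became 0.20, Hoxa11 -0.11, Hoxd11 0.023 and Sox2 -0.077. As deposited, Hoxa4 became 0.036 and Hoxd1 0.024, and with the mean of its probe sets Hoxa4 became 0.074. With 1 array left out, the turned values came without CONTROL_406 for Hoxb2 (range -0.015 to 0.35), Hoxb7 (-0.12 to 0.31) and Hoxb9 (-0.093 to 0.24). They came without CONTROL_421 for Hoxa7 (-0.44 to 0.16), Hoxb6 (-0.029 to 0.42), Hoxd1 (-0.20 to 0.023), Lum (-0.13 to 0.59), Pecam1 (-0.14 to 1.25), Upk3b (-0.042 to 0.44) and Nkx6-1 (-0.31 to 0.93). They came without null_426 for Hoxa2 (-0.39 to 0.018) and Hoxd12 (-0.017 to 0.096) and without null_60 for Hoxc13 (-0.74 to 0.16). Either of 2 arrays turned Hoxa4 (-0.14 to 0.10), Hoxa9 (-0.25 to 0.14), Hoxa10 (-0.11 to 0.014) and Hoxa11 (-0.099 to 0.19).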

Other observations

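Probe sets annotated to 2 Hox genes, and 1 for a transcript from the opposite strand of Hoxa11, were outside the members. The 2 probe sets shared by Hoxd4 and Hoxd3 differed in sign. The first (1421537_at) read 164, 147 and 285 in the null arrays and 133 and 146 in the controls, and the log2 difference was 0.40 ± 0.26 (SE, limma adjusted p = 0.780), with null_426 far above the rest. The second (1450209_at) had -0.11 ± 0.17 (SE, adjusted p = 0.898). The probe set shared by Hoxb8 and Hoxb7 read 80.6, 37.8 and 73.1 in the null arrays and 38.4 and 59.6 in the controls, a difference of 0.19 ± 0.27 (SE, adjusted p = 0.895). Hoxa11os, the opposite-strand transcript, had 0.19 ± 0.19 (SE, adjusted p = 0.849), against 0.05 ± 0.19 for Hoxa11 itself.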
